A study of Mus musculus with 7 samples.

Results

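Adipocyte genes were followed through injured and intact hindlimb tendon of mice. The set held 9 genes named by symbol: Pparg, Plin1, Plin4, Cidec, Fabp4, Adipoq, Lep, Retn and Cfd. All 9 passed the filter on low counts, among 16028 genes and unmatched transcripts that did. Adipocytes store fat as triglyceride in a single large lipid droplet and release hormones into the blood. PPARγ, encoded by Pparg, is the nuclear receptor that switches on the adipocyte programme, and most of the other genes of the set are among its classical targets. Fat cells lie around and between muscles and tendons, and fat can build up in injured muscle and tendon.

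The study addressed the kinase TAK1 in heterotopic ossification, the growth of bone in soft tissue. RNA was sequenced from hindlimb tendon of mice of C57BL/6 background, in 7 libraries and 3 groups. The tenotomy group (n = 2) was the left hindlimb, where the Achilles tendon had been cut at its midpoint and the skin closed with a suture. The mice of this group also had a partial-thickness burn of the back, made with an aluminum block of 60 °C that covered 30% of the body surface during 18 s, and tissue was sampled at 3 weeks. The contralateral group (n = 3) came from the intact right hindlimb of mice with the same burn and tenotomy at the same time, so it carries whatever the burn and the cut did to the whole animal. The uninjured group (n = 2) was tendon of wild-type mice with neither burn nor tenotomy. Injured mice were given isoflurane for the operation and buprenorphine afterwards; no such treatment is stated separately for the uninjured mice. Tissue was taken between the insertion in the gastrocnemius muscle and the attachment at the heel bone. Age and sex are not given. No label says which tenotomy and contralateral libraries came from 1 mouse or that each library was a separate mouse, so p-values measure the spread between these libraries, which may be partly technical.

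Libraries held between 25927171 and 36725106 estimated counts, of which 5 features took between 76.4% and 81.4% and left between 4934057 and 8375626 counts for all others. Every library held markers of more than tendon. Tendon markers (10 genes, among them Scx, Tnmd and Col1a1; CPM is a count relative to the scaled library total) summed to between 983 and 1402 CPM in contralateral, 5010 and 5029 in tenotomy, and 4613 and 4125 in uninjured libraries. Skeletal muscle markers (12 genes, among them Acta1, Myh4 and Ckm) summed to between 8540 and 11277 CPM in contralateral libraries, 919.8 and 920.0 CPM in tenotomy libraries, and 1148 and 8418 CPM in uninjured replicates 1 and 2. The uninjured libraries thus stood far apart: in muscle and macrophage markers replicate 1 lay near the tenotomy libraries and replicate 2 near the contralateral ones. Each comparison with the uninjured group is therefore given with both libraries and without each.

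The set was low at the cut tendon and high in the contralateral tendon. All 9 genes had both tenotomy libraries below every contralateral library, where 31.8% of all genes tested did. Differences between group means ran from 2.04-fold for Fabp4 to 3.86-fold for Retn. In edgeR's quasi-likelihood fit of all 7 libraries, 5 of 9 fell past an adjusted p-value of 0.05 (Retn, Cidec, Plin4, Cfd and Plin1) and none rose, against 15.4% of all genes called lower. The median log2 fold change was -1.42 over the 9 genes and -0.001 over all genes. RNA of the whole tissue was measured, and marker sums of muscle and tendon also differed between these groups. Fewer fat cells, less RNA per fat cell and a different amount of other tissue therefore cannot be told apart.

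**Figure D1:**
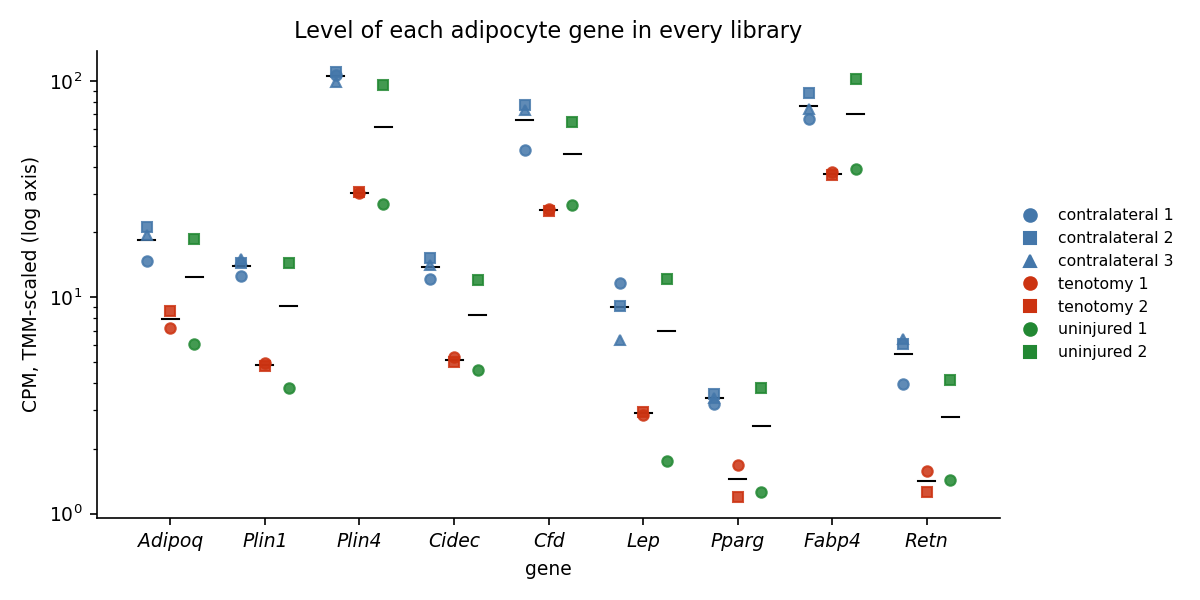
Level of each of the 9 adipocyte genes in every library, in CPM on a log axis. Points are libraries, with shape giving the replicate number, and black bars are group means. Both tenotomy libraries lie below all contralateral libraries for every gene, with uninjured replicate 1 near the tenotomy libraries and replicate 2 near the contralateral ones.

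Pparg (ENSMUSG00000000440.12; chromosome 6, 115360951 to 115490399, plus strand, GRCm38), the receptor gene, was among the lowest of the set. In replicate order, it was at 3.22, 3.59 and 3.43 CPM in contralateral, 1.69 and 1.20 in tenotomy, and 1.26 and 3.82 in uninjured libraries. The contralateral libraries lay close together and the uninjured libraries fell on opposite sides of them. The log2 fold change of tenotomy against contralateral was -1.23 (edgeR adjusted p = 0.0586, SE 0.41), outside the threshold. These values rest on between 35 and 126 counts per library. Pparg has alternative starts. The protein PPARγ2, found mainly in fat, is made from the downstream start, and PPARγ1, made in many tissues, from the upstream one. The transcript from the downstream start, at 115422066, was estimated at 35.3% to 45.4% of the gene's counts in contralateral libraries. It took between 30.7% and 48.6% in the tenotomy libraries, and between 36.0% and 37.1% in uninjured libraries. The ranges of the 3 groups overlapped. How counts are divided between transcripts is an estimate.

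The 250 bases before the start of transcription are shown for the starts that held the motif TTGCNNAA. This is the core recognised by C/EBP factors, the partners of PPARγ in fat cell differentiation. Whether these factors had a part in the differences of the set was not tested. The upstream Pparg start, which had no match, is shown for contrast. These windows were picked after the matches were seen. Matches on either strand are in capitals. Sequences are RefSeq's, build GRCm38.p6, 5′ to 3′ on the gene's strand.
Pparg, downstream start, plus strand, chr6:115421816-115422065: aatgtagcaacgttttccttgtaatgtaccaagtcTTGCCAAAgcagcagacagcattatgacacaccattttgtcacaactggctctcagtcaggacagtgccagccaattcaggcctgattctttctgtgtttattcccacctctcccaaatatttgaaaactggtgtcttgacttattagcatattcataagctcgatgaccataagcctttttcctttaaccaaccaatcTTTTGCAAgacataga
Pparg, upstream start, plus strand, chr6:115360894-115361143: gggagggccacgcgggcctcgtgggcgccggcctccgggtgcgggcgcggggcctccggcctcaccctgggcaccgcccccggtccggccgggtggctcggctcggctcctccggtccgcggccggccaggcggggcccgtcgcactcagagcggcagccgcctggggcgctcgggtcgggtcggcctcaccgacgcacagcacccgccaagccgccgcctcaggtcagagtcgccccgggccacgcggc
Lep, plus strand, chr6:29059971-29060220: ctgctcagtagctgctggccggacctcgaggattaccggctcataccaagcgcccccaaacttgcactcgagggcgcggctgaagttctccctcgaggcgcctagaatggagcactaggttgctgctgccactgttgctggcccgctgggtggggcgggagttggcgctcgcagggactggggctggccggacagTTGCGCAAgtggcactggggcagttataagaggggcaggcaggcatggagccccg
Plin1, minus strand, chr7:79732777-79733026: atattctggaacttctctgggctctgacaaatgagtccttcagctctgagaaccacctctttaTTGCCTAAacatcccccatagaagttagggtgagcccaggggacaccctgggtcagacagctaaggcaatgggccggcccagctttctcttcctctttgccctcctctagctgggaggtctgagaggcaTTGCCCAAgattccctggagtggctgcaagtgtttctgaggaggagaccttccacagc
Cidec, inner start, minus strand, chr6:113434765-113435014: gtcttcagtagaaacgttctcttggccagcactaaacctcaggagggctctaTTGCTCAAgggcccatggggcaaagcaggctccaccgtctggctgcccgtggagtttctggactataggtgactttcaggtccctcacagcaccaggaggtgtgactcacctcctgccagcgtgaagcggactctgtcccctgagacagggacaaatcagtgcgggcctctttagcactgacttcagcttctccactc

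The Pparg starts differ in base composition: G and C made up 40.8% of the bases before the downstream start and 82.4% before the upstream one shown. A further upstream start, at 115362349, had 63.6% and no match. The window before the upstream start shown contains the position at which the annotated transcript begins, 115360951. The downstream window held TTGCNNAA with its first base 215 and 16 bases before the start, and Plin1 held it at 187 and 58. These are not all main starts here: the transcript from the Plin1 start shown took between 5.04% and 28.9% of the gene's estimated counts, and that from the Cidec start shown between 0% and 6.69%. The window before the outer Cidec start held no match. Lep held a single match, 55 bases before the start, in the palindromic form TTGCGCAA. Over windows of 300 bases, which include the first 50 transcribed, TTGCNNAA was in 4 of 11 member windows and in 10.8% of 32851 windows of all genes. The 11 windows belonged to 8 genes, some with more than 1 window. TTGCGCAA was in 1 of 11 and in 0.183%. The PPAR response element, AGGTCA repeated with any 1 base between the copies, was in 0 of the 11 and in 0.040% of all windows, and its looser form, AGGNCA repeated in the same way, in 0 and in 0.381%. Among the other motifs searched, the looser TTNCNNAA, which contains every TTGCNNAA, was in 6 of 11 (40.7% of all), CCAAT in 4 (37.4%), GGGCGG in 3 (35.7%), TATAAA in 1 (13.6%), and CACGTG and TGACGTCA in 0 (7.15% and 1.79%). Both strands were searched. These are counts of letters, and no factor binding was measured. The table of promoters used held no window for Fabp4.

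The 3 genes of lipid droplet proteins all fell at the cut tendon. Plin4 (ENSMUSG00000002831.13; chromosome 17, 56100591 to 56109803, minus strand) encodes perilipin 4, a droplet coat protein made in fat cells and also in muscle. It was at 106.6, 110.0 and 98.5 CPM in contralateral, 30.4 and 30.6 in tenotomy, and 26.9 and 96.0 in uninjured libraries. Its tenotomy libraries were almost equal, and its fall by 1.78 in log2 units (edgeR adjusted p = 0.0302, SE 0.48) was exceeded in the set by that of Retn. Plin1 (ENSMUSG00000030546.14; chromosome 7, 79720218 to 79732903, minus strand) encodes perilipin 1, which coats the large droplet of white fat cells and gates its breakdown. It was at 12.6, 14.3 and 15.1 CPM in contralateral, 4.98 and 4.80 in tenotomy, and 3.81 and 14.5 in uninjured libraries. Uninjured replicate 1 was the lowest library for Plin1 and replicate 2 lay inside the contralateral range. Its log2 fold change was -1.52 (edgeR adjusted p = 0.0489, SE 0.48), near the threshold. Cidec (ENSMUSG00000030278.11; chromosome 6, 113424634 to 113435760, minus strand) encodes the protein that fuses small droplets into large ones. It was at 12.1, 15.2 and 14.0 CPM in contralateral, 5.28 and 5.00 in tenotomy, and 4.64 and 12.0 in uninjured libraries. It fell by 1.42 (edgeR adjusted p = 0.0261, SE 0.36).

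The transcripts of these genes could be told apart only in part. The 2 Plin4 transcripts start 1 base apart and are 5755 and 5756 bases long, and the share given to the first ran from 14.0% to 62.5% over the 7 libraries. For Plin1 the transcript from the inner start, at 79732171, took between 71.2% and 95.0% of the counts in every library. Count sums per gene do not depend on these divisions.

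Fabp4 (ENSMUSG00000062515.3; chromosome 3, 10204088 to 10208576, minus strand) encodes the fatty acid carrier of the fat cell cytoplasm, which capillary endothelium and macrophages also make. It was at 66.9, 87.6 and 74.2 CPM in contralateral, 37.8 and 36.9 in tenotomy, and 39.3 and 101.7 in uninjured libraries. The groups of injured mice did not overlap, but Fabp4 had the smallest difference of the set, at -1.03 on the log2 scale (edgeR adjusted p = 0.0763, SE 0.38), outside the threshold. Its highest library was uninjured replicate 2.

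All 4 genes of secreted proteins were lower at the cut tendon, and Retn and Cfd passed the threshold in the fit of all 7 libraries. Retn (ENSMUSG00000012705.16; chromosome 8, 3655770 to 3660110, plus strand) encodes resistin, a hormone that in mice comes from fat cells. It was at 3.97, 6.09 and 6.40 CPM in contralateral, 1.58 and 1.27 in tenotomy, and 1.44 and 4.16 in uninjured libraries. It fell by 1.94 (edgeR adjusted p = 0.0192, SE 0.44), the largest difference in the set, on 58 and 38 counts in the tenotomy libraries. Cfd (ENSMUSG00000061780.6; chromosome 10, 79890853 to 79892655, plus strand) encodes adipsin, the serine protease that starts the alternative complement pathway. It was at 47.9, 77.4 and 73.6 CPM in contralateral, 25.6 and 25.2 in tenotomy, and 26.7 and 64.8 in uninjured libraries. Contralateral replicate 1 was the lowest of its group for Cfd, as it was for every other gene of the set except Plin4 and Lep. Cfd fell by 1.38 (edgeR adjusted p = 0.0359, SE 0.39).

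Adipoq (ENSMUSG00000022878.5; chromosome 16, 23146536 to 23158028, plus strand) encodes adiponectin, a hormone of fat cells that raises insulin sensitivity. It was at 14.7, 21.0 and 19.4 CPM in contralateral, 7.21 and 8.67 in tenotomy, and 6.11 and 18.7 in uninjured libraries. Its log2 fold change was -1.21 (edgeR adjusted p = 0.0692, SE 0.43). Lep (ENSMUSG00000059201.12; chromosome 6, 29060220 to 29073877, plus strand) encodes leptin, the hormone that reports fat stores to the brain. It was at 11.7, 9.08 and 6.34 CPM in contralateral, 2.86 and 2.97 in tenotomy, and 1.76 and 12.2 in uninjured libraries. Lep had the widest relative spread among contralateral libraries: contralateral replicate 1, the lowest of its group for Adipoq, was the highest for Lep. Its change was -1.63 on the log2 scale (edgeR adjusted p = 0.109, SE 0.69). Neither hormone gene passed the threshold in this fit.

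The call depended on which libraries set the spread. The fit of all 7 libraries takes part of its error from the 2 uninjured libraries, which lay far apart. With only the tenotomy and contralateral libraries in the fit, all 9 genes passed as lower (24.1% of all genes did), and their log2 fold changes ran from -1.95 to -1.03. All 9 passed, too, with DESeq2 (12.9% of all genes lower) and, in edgeR, without a filter on low counts (9.13%). They also passed when uninjured replicate 1 (22.0% of all genes lower) or replicate 2 (22.3%) was left out. Conversely, 0 of 9 and 0 of all genes passed when tenotomy replicate 1 or 2 or contralateral replicate 1, 2 or 3 was left out of the fit that kept both uninjured libraries; between 3 and 8 of the 9, and between 4538 and 6148 of all genes, then had an unadjusted p-value under 0.05. In the fit of the groups compared alone, all 9 passed as lower without contralateral replicate 1 (25.2% of all genes lower), 2 (21.6%) or 3 (23.4%), and without tenotomy replicate 1 (17.4%) or 2 (17.5%). Within the series of title numbers that holds tenotomy replicate 1 and the contralateral libraries, the level of that tenotomy library against the contralateral mean was between -1.80 for Retn and -1.01 for Fabp4 on the log2 scale. No label calls these number series a batch.

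**Figure D2:**
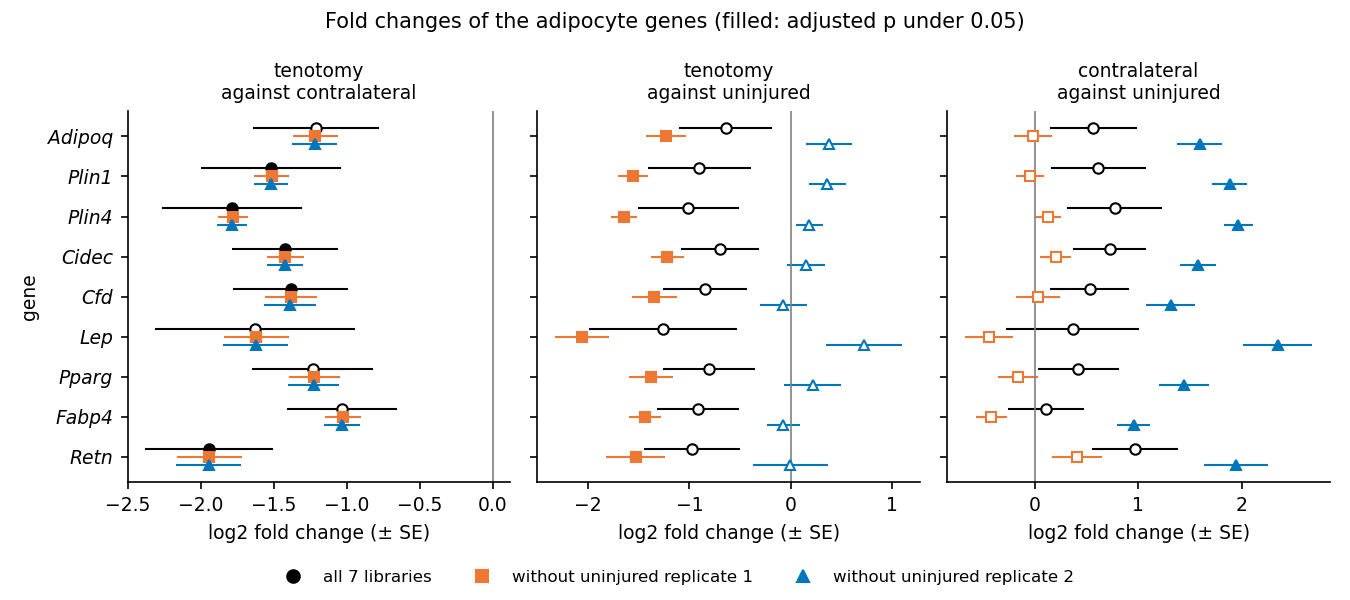
Log2 fold changes (± SE) of the 9 genes in the 3 comparisons, from edgeR fits of all 7 libraries and without each uninjured library; filled symbols passed an adjusted p-value of 0.05. The tenotomy against contralateral values hardly move, while those against the uninjured group shift with the library left out.

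Against the uninjured group the set did not change past the threshold in the fit of all libraries. The question here was how the cut tendon compared with that of mice never injured. The log2 fold changes of tenotomy against uninjured ran from -1.26 for Lep to -0.64 for Adipoq (edgeR adjusted p from 0.466 to 0.595). None of the 9 passed, none had an unadjusted p-value under 0.05, and 0.0% of all genes passed; 1741 of all genes had such a p-value, and DESeq2 called 145 of all genes and 0 of the 7 members it gave an adjusted p-value (none for Pparg and Retn). These means join libraries that disagreed. In all 9 genes uninjured replicate 2 was more than 2-fold above replicate 1, against 11.7% of all genes tested, from 2.43-fold for Cfd to 6.92-fold for Lep. Without replicate 1, all 9 genes passed as lower at the cut tendon (13.7% of all genes lower), with log2 fold changes from -2.06 for Lep to -1.22 for Cidec. Without replicate 2, 0 of 9 passed (0.0237% of all genes lower), and values ran from -0.07 for Fabp4 to 0.72 for Lep. Tenotomy replicate 2 and uninjured replicate 1, which share a title-number series, differed by between -0.18 for Retn and 0.75 for Lep on the log2 scale.

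The remaining comparison set the intact tendon of injured animals against that of animals never injured. Each of the 3 comparisons shares libraries with the others. Log2 fold changes of contralateral against uninjured ran from 0.11 for Fabp4 to 0.97 for Retn (edgeR adjusted p from 0.257 to 0.883), and none passed, as for 0.0% of all genes. Retn alone had an unadjusted p-value under 0.05, as did 3084 of all genes, and DESeq2 called 223 of all genes and 0 of the 8 members it gave an adjusted p-value (none for Pparg). For 4 of the 9 (Adipoq, Plin1, Cfd and Retn), uninjured replicate 1 lay below every contralateral library and replicate 2 inside their range. The same held for 14.1% of all genes. Without replicate 2 all 9 passed as higher in contralateral tendon (16.9% of all genes higher), by 0.96 to 2.35 on the log2 scale. Without replicate 1 none did (0.306% of all genes higher), with values from -0.44 for Lep to 0.41 for Retn.

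Levels of different genes were compared in TPM, which allow for transcript length. Fabp4 and Cfd were the most abundant of the set in every library. Fabp4 was at 15.3 TPM ± 3.35 (SD, n = 3) and Cfd at 14.0 TPM ± 3.40 (SD, n = 3) in contralateral tendon, which did not differ beyond their spread. Next came Plin4 at 2.70 TPM ± 0.488 (SD, n = 3) and Adipoq at 2.65 TPM ± 0.492 (SD, n = 3), also within their spread, although Plin4, with the longer transcript, has by far the larger CPM. Cidec was at 1.62 TPM ± 0.311 (SD, n = 3), followed by Retn at 1.22 TPM ± 0.272 (SD, n = 3) and Plin1 at 1.22 TPM ± 0.120 (SD, n = 3). Lep was at 0.547 TPM ± 0.225 (SD, n = 3) and Pparg at 0.307 TPM ± 0.0428 (SD, n = 3). At the cut tendon the order was much the same, with Fabp4 at 7.09 TPM ± 0.321 (SD, n = 2) and Cfd at 5.10 TPM ± 0.286 (SD, n = 2), apart by more than their spread there. Pparg at 0.124 TPM ± 0.0195 (SD, n = 2) and Lep at 0.132 TPM ± 0.0139 (SD, n = 2) differed by less than their spread.

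The share of each gene in the total of the set was taken next. The summed TPM of the 9 genes was 35.2, 48.6 and 34.8 in contralateral, 14.8 and 16.1 in tenotomy, and 17.4 and 43.2 in uninjured libraries. Fabp4 took between 36.5% and 40.4% of that sum in contralateral libraries, 46.3% and 45.4% in tenotomy libraries, and 47.3% and 45.7% in uninjured replicates 1 and 2. For this share the uninjured libraries lay close together, and both lay above every contralateral library. Retn took between 2.67% and 3.53% in contralateral libraries, 2.18% and 1.79% in tenotomy, and 1.97% and 2.20% in uninjured libraries. Here every contralateral library lay above the 4 others. Cfd took between 31.1% and 38.1% over all 7 libraries, and Pparg between 0.684% and 0.929%, with no separation of the groups. The Lep share varied most, from 0.522% in uninjured replicate 1 to 2.19% in contralateral replicate 1. These shares were noticed in the data and not tested.

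**Figure D3:**
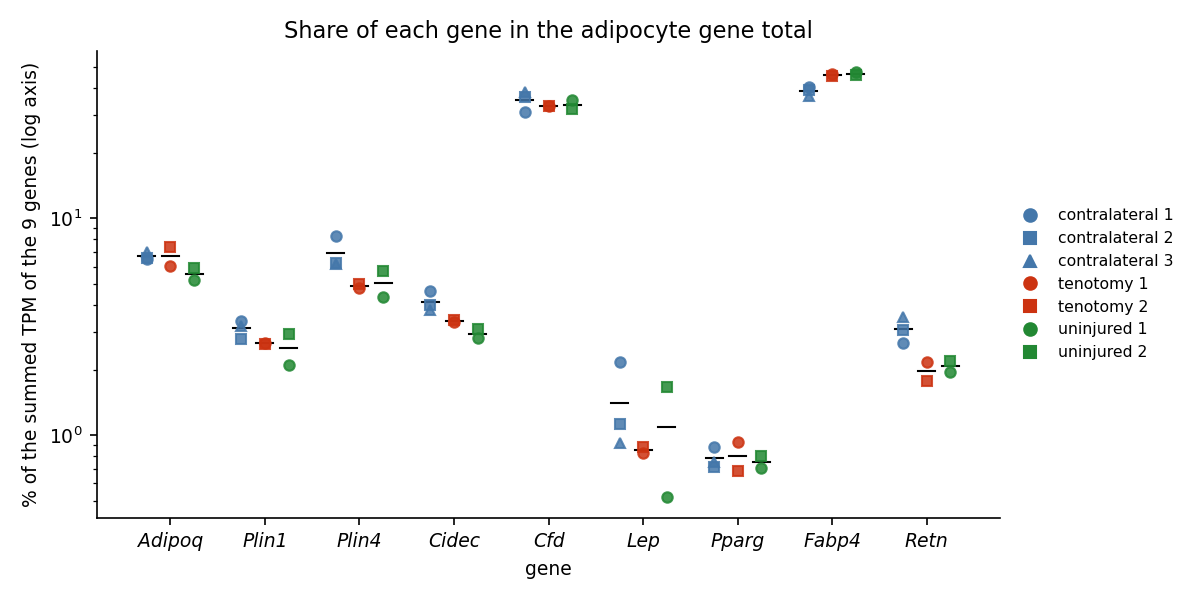
Share of each gene in the summed TPM of the 9 adipocyte genes, in percent on a log axis, for each library; black bars are group means. The Fabp4 share is between 36.5% and 40.4% in contralateral libraries and above 45% in the 4 others.

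Across the 7 libraries the 9 genes followed 1 pattern. The 36 pairwise Pearson correlations of log2 CPM between them ran from 0.84 to 0.99 with a median of 0.96. The 8 genes outside the set closest to its mean standardized profile, among 7155 candidates with a mean log2 CPM of at least 1, were Scd1, Map1lc3a, Larp1b, Znrf2, Pank3, Med24, Aldh4a1 and Trim55 (Pearson r from 0.996 to 0.998 over 7 libraries). Scd1 encodes the desaturase that makes monounsaturated fatty acids, and Trim55 a ubiquitin ligase of striated muscle. Scd1 was at 263.6, 320.7 and 289.3 CPM in contralateral, 101.5 and 105.7 in tenotomy, and 87.2 and 298.8 in uninjured libraries, the same layout as the set. Likeness of this kind is common here: 25.8% of the candidates had an r above 0.9. The 12 skeletal muscle markers had a median r of 0.979 with this profile, and all genes tested -0.023. The pattern was thus not particular to genes of fat cells.

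Other genes of fat metabolism and its control were taken from 5 lists, which held 55 tested genes outside the set. In tenotomy against contralateral, 24 of the 55 fell and 1 rose in the fit of all libraries, against 15.4% lower and 13.6% higher among all genes. In the comparisons with the uninjured group, where no gene at all passed in the fit of all libraries, the lists followed the library left out. Without uninjured replicate 1, the genes called lower in tenotomy against uninjured (13.7% of all genes) were 13 of 16 for lipid synthesis, 8 of 10 for uptake, 7 of 9 for lipolysis, 4 of 9 for lipid droplets and 5 of 12 for transcription factors. None was called in that comparison without replicate 2. Without replicate 2, those called higher in contralateral against uninjured (16.9% of all genes) were 11 of 16, 8 of 10, 8 of 9, 4 of 8 and 5 of 12 in the same order. Without replicate 1, none was called higher there. The lists are described in turn, without the members of the set. Several of these genes are also active in skeletal muscle, whose markers fell in 12 of 12 genes.

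Fatty acid and triglyceride synthesis had 9 of 16 genes called lower and 0 higher, with a median log2 fold change of -1.54. The 3 largest falls were in steps of glycerolipid assembly. Gpam, the first enzyme of triglyceride synthesis, was at 23.4, 25.6 and 22.1 CPM in contralateral and 3.78 and 4.17 in tenotomy libraries and fell by 2.58 in log2 units (edgeR adjusted p = 0.0167, SE 0.47). Lpin1, a phosphatidate phosphatase, fell by 2.46 and Dgat2, which makes the final ester bond, by 2.15 (edgeR adjusted p = 0.0167 and 0.0241). Of the genes that build fatty acids, Fasn gave -1.07, Acaca -0.58 and Acly 0.32 on the log2 scale, none past the threshold (edgeR adjusted p = 0.107, 0.122 and 0.184). Scd1, the desaturase named above, fell by 1.49 (edgeR adjusted p = 0.0498), just past it. Differences between these kinds of steps were not tested.

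Uptake of fatty acids and glucose had 6 of 10 genes called lower and 1 higher. Slc2a4, the insulin-responsive glucose transporter GLUT4, fell by 2.85 (edgeR adjusted p = 0.0167, SE 0.58). Lpl, the lipase that frees fatty acids from lipoproteins, was at 192.3, 236.6 and 202.5 CPM in contralateral and 51.2 and 49.5 in tenotomy libraries and fell by 2.06 (edgeR adjusted p = 0.0167, SE 0.40). Gpihbp1, which anchors that lipase to capillaries, fell by 2.00 (edgeR adjusted p = 0.0181). The gene that rose was Fabp5, a carrier of the same family as Fabp4, by 0.94 (edgeR adjusted p = 0.0334, SE 0.26).

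Lipolysis had 4 of 9 tested genes called lower and 0 higher (median -0.96). With only the groups compared in the fit, 9 of 9 were lower (24.1% of all genes). Acsl1, which activates fatty acids, fell by 2.28, Pnpla2, the triglyceride lipase ATGL, by 1.96 and Adrb3, the adrenergic receptor of fat cells, by 1.95 (edgeR adjusted p = 0.0179, 0.0311 and 0.0183). Adrb3 was low throughout, at no more than 1.08 CPM, and unlike the set it was low in both uninjured libraries, at 0.287 and 0.241 CPM.

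The other lipid droplet genes had 3 of 8 tested called lower and 0 higher (median -0.68). Fitm1, Plin5 and Fitm2 fell by 3.12, 2.82 and 1.85 (edgeR adjusted p = 0.0167, 0.0167 and 0.0167); Fitm1 and Plin5 are typical of muscle and other fat-burning tissues. The perilipins found in nearly all cells, Plin2 and Plin3, gave 0.12 and -0.21 (edgeR adjusted p = 0.709 and 0.422), neither past the threshold. Differences between perilipins were not tested.

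Among transcription factors of adipocyte differentiation, 2 of 12 were called lower and 0 higher (median -0.43). The share called lower was near that of all genes, 15.4%. Klf15 fell by 1.75 (edgeR adjusted p = 0.0196, SE 0.40) and Cebpb by 0.80 (edgeR adjusted p = 0.0202, SE 0.18). Rxrg, a partner receptor of PPARγ, gave -1.73 (edgeR adjusted p = 0.0509), and Cebpa, the factor that holds the mature fat cell state together with PPARγ, gave -0.59 (edgeR adjusted p = 0.222). Factors of the committed precursor, Zfp423, Ebf1 and Ebf2, gave 0.23, 0.30 and 0.44 (edgeR adjusted p = 0.306, 0.186 and 0.0579). With only the groups compared in the fit, 6 of the 12 passed as lower and 2 as higher. That fit called 24.1% of all genes lower and 3533 of 16014 higher.

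**Figure D4:**
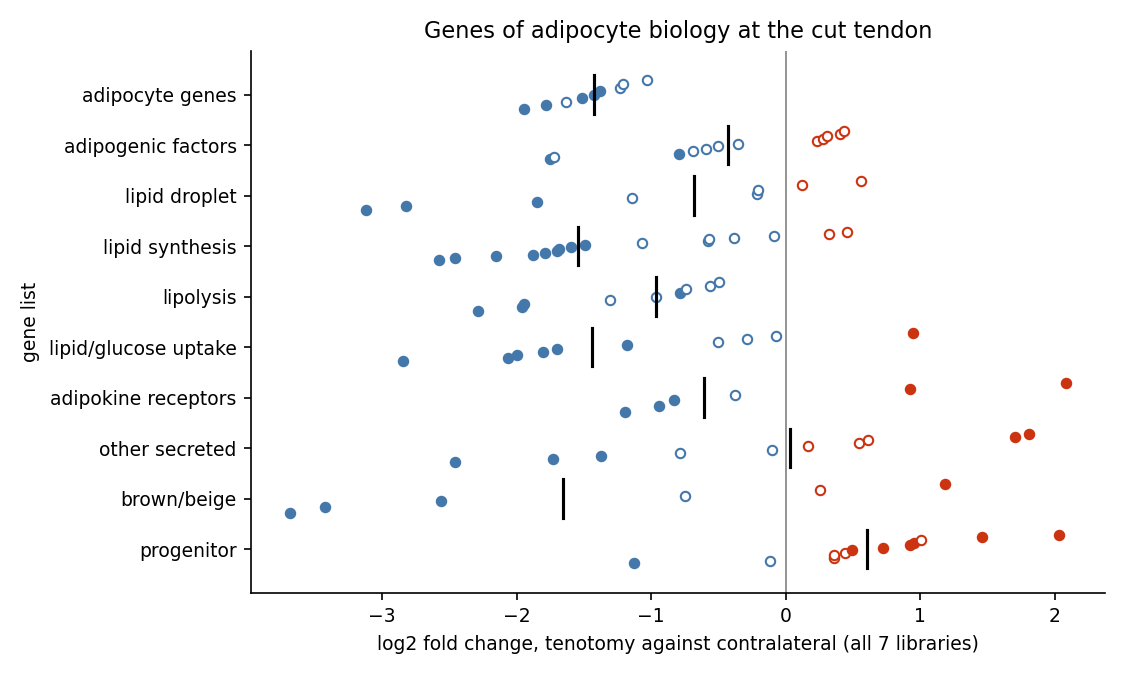
Log2 fold change of tenotomy against contralateral for each tested gene of the lists, from the fit of all 7 libraries; blue is lower, red higher, filled symbols passed an adjusted p-value of 0.05 and black bars are medians. The 9 adipocyte genes all lie left of 0, from -1.94 to -1.03, and most progenitor genes lie right of it.

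Genes of fat cell progenitors went mostly the other way. Of 12, 6 rose (Pi16, Icam1, Ly6a, Pdgfrb, Pdgfra and Cd34) and 1 fell (Gata2), with a median of 0.61. The shares over all genes were 13.6% higher and 15.4% lower. Pi16, a marker of fibroblast-like progenitors, was at 4.12, 4.10 and 3.77 CPM in contralateral and 16.5 and 16.1 in tenotomy libraries and rose by 2.03 (edgeR adjusted p = 0.0167, SE 0.39). It was at 15.6 and 5.09 CPM in uninjured replicates 1 and 2. Dlk1, the preadipocyte factor, gave 1.00 on at most 0.433 CPM (edgeR adjusted p = 0.253). Many of these genes also mark fibroblasts in general.

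Defining genes of brown fat were at or near 0. Ucp1, the defining uncoupling protein, had 0 counts in all 7 libraries, where a count of 0 allows up to 3. Cidea had 5, 7 and 11 counts in contralateral, 1 and 0 in tenotomy, and 0 and 5 in uninjured libraries, a layout like that of the set. Elovl3 had between 0 and 3 counts, and both genes were removed by the filter in the fit of all 7 libraries. Of 6 tested genes 3 were called lower, against 15.4% of all genes. Cox7a1 fell by 3.68, Cox8b by 3.43 and Ppargc1a by 2.56 (edgeR adjusted p = 0.0167, 0.0167 and 0.0167), and all of them are also muscle genes. Dio2 rose by 1.18 (edgeR adjusted p = 0.0312).

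Between tenotomy and contralateral libraries, the muscle marker sum moved with the set, and the tendon, macrophage and cartilage sums moved the other way. For the tendon sum given above, both uninjured libraries, at 4613 and 4125 CPM, lay above every contralateral library, unlike the layout of the set. The summed level of the 9 genes was 279.6 to 344.4 CPM in contralateral libraries, 117.4 and 116.6 in tenotomy libraries, and 111.9 and 327.9 in uninjured replicates 1 and 2. The muscle sum given above had the same layout over a wider range. Macrophage markers (12 genes) summed to between 33.9 and 42.3 CPM in contralateral, 138.0 and 142.7 in tenotomy, and 138.8 and 43.2 in uninjured libraries, with 10 of 12 called higher at the cut tendon. Endothelial markers (10 genes) had overlapping sums, of 70.9 to 82.3 CPM in contralateral, 72.8 and 63.0 in tenotomy, and 80.6 and 81.3 in uninjured libraries; 1 of 10, Kdr, was called lower. Cartilage markers (10 genes) summed to between 27.2 and 52.1 CPM in contralateral, 323.3 and 326.6 in tenotomy, and 131.7 and 48.3 in uninjured libraries, and 8 of 9 tested rose. Beside these counts, 13.6% of all genes were called higher and 15.4% lower at the cut tendon. None of these muscle, macrophage or endothelial markers was at 0 in every library. The part of muscle and macrophage content in the differences of the set was not tested.

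**Figure D5:**
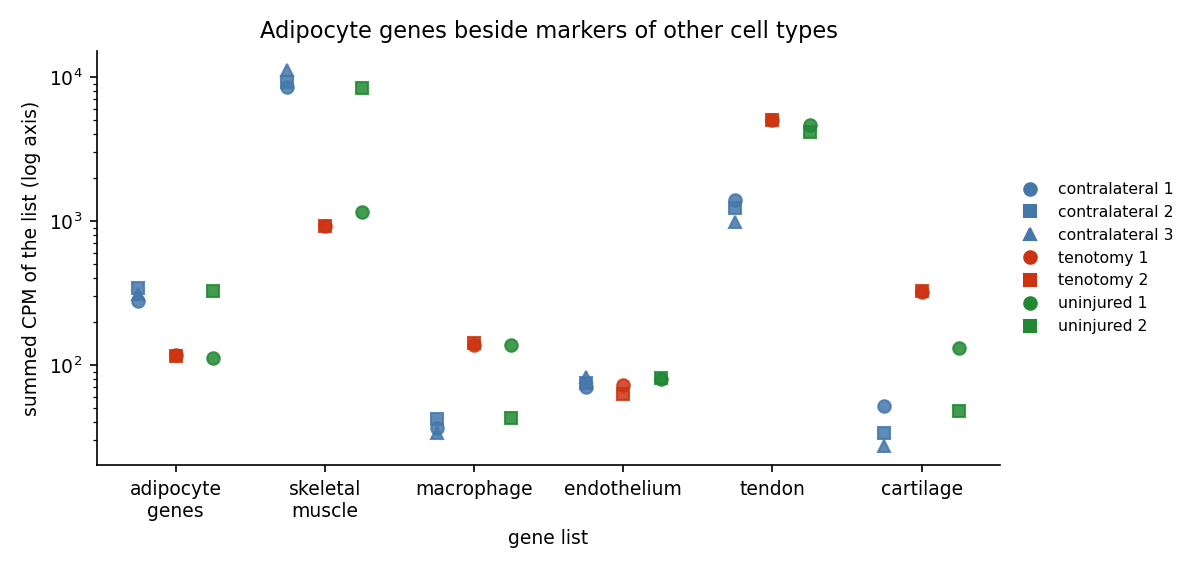
Summed CPM of the 9 adipocyte genes and of marker lists of other cell types, on a log axis; points are libraries, with shape giving the replicate number. Adipocyte and muscle sums are low in both tenotomy libraries and uninjured replicate 1, macrophage sums are high there, and endothelial sums stay between 63.0 and 82.3 CPM.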

How the data were processed

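Per the file headers, each library's file lists 103639 transcripts with estimated counts and TPM. The submitters' processing notes name FastQC 0.11.4 and kallisto, and the build GRCh38, which is human, while all transcript IDs in the files are mouse. The authors' deposited estimated counts carry no normalization. Their deposited TPM are scaled by effective length, with a total that includes the 5 features that dominate every library.

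IDs were matched without version to GENCODE M21 (GRCm38): 101510 matched and 2129 were kept as single features. Estimated counts were summed per gene and rounded. Features were filtered with filterByExpr (minimum count 10) and scaled by TMM, and the 3 groups were compared in 1 fit of all 7 libraries by edgeR 4.0.16's quasi-likelihood test (R 4.3.3), with Benjamini-Hochberg adjustment over 16028 features and a threshold of 0.05. The SE is the log2 fold change divided by the square root of F. Log2 CPM used a prior count of 2. On simulated counts, edgeR recovered 183 of 200 genes changed by 2 on the log2 scale between tenotomy and contralateral, with 11 others called (15577 genes). That change is larger than that of any of the 9 genes, and both uninjured libraries were simulated with the same means. The recovery therefore does not measure power for the set.

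The members and lists were chosen with earlier results of these data known. Named genes are the 9 members, up to 3 genes per list with the largest absolute log2 fold change in tenotomy against contralateral, and the 8 genes most like the set; others were named after their values were seen. Alternatives used DESeq2 1.42.0, limma-voom (limma 3.58.1), other scalings, filters, fits, features, units and a title-number covariate, and left out each library.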

Additional observations from a re-analysis of the deposited data

How the results depend on the processing

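In tenotomy against contralateral every one of the 9 genes kept its direction in all 22 alternative fits, with log2 fold changes from -2.13 (Retn) to -0.92 (Fabp4). The count of 5 genes called became 9 with DESeq2, without a filter on low counts, with only the groups compared and with the title-number series as covariate. That covariate leaves the contrast to tenotomy replicate 1 and the spread to the 3 contralateral libraries, so its counts are no separate support. Leaving out 1 library gave between 0 and 9, and 9 each time in the fit of the groups compared alone. Limma-voom and length-scaled TPM gave 4, and the other scalings 5; upper quartile scaling moved the median of all genes to 0.11. Of all genes, 4643 passed, 7385 with only the groups compared, between 0 and 7336 without 1 library, and between 5245 and 7618 when the fit of the groups compared lost 1 library.

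In tenotomy against uninjured, the count of 0 became 9 without uninjured replicate 1, and ranged from 0 to 9 over the left-out libraries. Of all genes, 0 became 145 with DESeq2, 15 without a filter and 4 with the covariate, and between 0 and 4275 without 1 library. With the covariate, which compares the cut tendon with uninjured replicate 1 alone, values turned to 0.50 for Adipoq, 0.33 for Plin1, 0.19 for Plin4, 0.11 for Cidec and 0.75 for Lep. Leaving out 1 library gave ranges of -1.23 to 0.38 for Adipoq, -1.56 to 0.36 for Plin1, -1.65 to 0.18 for Plin4, -1.22 to 0.15 for Cidec, -2.06 to 0.72 for Lep and -1.38 to 0.22 for Pparg, with the lowest value without uninjured replicate 1 and the highest without replicate 2.

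In contralateral against uninjured, the count of 0 became 6 with the covariate, an estimate that reaches uninjured replicate 1 only through the tenotomy libraries, and 9 without uninjured replicate 2, from 0 over the other left-out libraries. Of all genes, 0 became 223 with DESeq2, 337 without a filter, 2466 with the covariate, and between 0 and 5393 without 1 library. Leaving out 1 library gave ranges of -0.019 to 1.59 for Adipoq, -0.043 to 1.88 for Plin1, -0.44 to 2.35 for Lep, -0.16 to 1.44 for Pparg and -0.42 to 0.96 for Fabp4, the lowest without uninjured replicate 1 and the highest without replicate 2. In both comparisons the turn follows from which uninjured library is left. No paired analysis was possible because the labels give no replicate numbers or shared animals. Depth limits Pparg, Retn and Lep most, and a group left with 1 library is assumed to vary like the others.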

Other observations

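Receptors of the hormones of the set were also measured. Adipor1 and Adipor2, the adiponectin receptors, fell at the cut tendon against the contralateral tendon by 0.83 and 1.20 in log2 units (edgeR adjusted p = 0.0226 and 0.0211), and Cdh13, which binds adiponectin on vessels and muscle, by 0.94 (edgeR adjusted p = 0.0241). Cap1, reported as a binding partner of resistin, rose by 0.92 (edgeR adjusted p = 0.0200), and C3ar1, a complement receptor downstream of the pathway that adipsin starts and a gene of myeloid cells, rose by 2.08 (edgeR adjusted p = 0.0193, SE 0.47). Lepr, the leptin receptor, gave -0.38 (edgeR adjusted p = 0.443). For comparison, 15.4% of all genes were called lower and 13.6% higher. The uninjured libraries lay apart here too. In replicates 1 and 2, Adipor2 was at 8.66 and 16.8 CPM, Cdh13 at 8.55 and 14.5, and C3ar1 at 5.28 and 1.48. Against the uninjured group, no gene passed in the fit of all 7 libraries.

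Other proteins that fat cells secrete did not move as 1 group: 3 of 10 fell (Lpin1, counted with this list although it is an enzyme, Nampt and Sfrp5), 2 rose (Apln and Rbp4), and the median was 0.03. Among all genes, 15.4% were called lower and 13.6% higher. Rbp4, the retinol carrier, was at 0.974, 0.626 and 1.33 CPM in contralateral and 3.32 and 3.03 in tenotomy libraries and rose by 1.71 (edgeR adjusted p = 0.0181), opposite in direction to the 9 adipocyte genes. It was at 2.59 and 1.17 CPM in uninjured replicates 1 and 2.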
